A study of Homo sapiens with 46 samples.

Results

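The 10 genes described here encode the protein complexes that cap and extend human chromosome ends: the 6 shelterin subunits (TERF1, TERF2, TERF2IP, TINF2, ACD and POT1), the 3 subunits of the CST complex (CTC1, STN1 and TEN1) and TERT, the catalytic subunit of telomerase. They were chosen by symbol, and all 10 were present among the 61228 genes of the HCT116 count table and among the 30160 genes of the HEK293 table. HCT116 is a human colorectal carcinoma line and HEK293 a human embryonic kidney line. The study removed Ku, the heterodimer of Ku70 (gene XRCC6) and Ku80 (also called Ku86, gene XRCC5), in 3 ways and measured RNA levels by sequencing of 46 libraries in 18 groups.

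Shelterin coats the double-stranded TTAGGG repeats of telomeres through TERF1 and TERF2, which TINF2 and ACD join to POT1 on the single-stranded overhang, while TERF2IP (RAP1) rides on TERF2. Telomerase adds repeats to the overhang with TERT as reverse transcriptase and the RNA TERC as template, and CST ends this extension and brings in DNA polymerase alpha-primase to fill in the other strand. Ku also sits at human telomeres, and its loss in human cells is known to release telomeric DNA circles and shorten telomeres.

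In HCT116 cells whose Ku80 carries an auxin-inducible degron (Ku80-AID), the protein was removed with 100 µM of the auxin indole-3-acetic acid (IAA) given together with 0.5 µg/mL doxycycline. Clones 1 and 9 were sampled after 1 day of IAA or DMSO, and clones 1, 7 and 9 after 2 days of DMSO and after 2, 4 and 6 days of IAA. The only DMSO control for 4 and 6 days of IAA, and for 4 days of inhibitor alone, is therefore the 2-day one, and the DMSO arms had no doxycycline. A CDK4/6 inhibitor was given alone or with IAA and doxycycline for 2 days (clones 1 and 9) or 4 days (clones 1, 7 and 9). Ku80-AID cells that also lack MAVS, the adaptor of cytosolic RNA sensing, were given DMSO or IAA with doxycycline for 4 days (clones 1, 13 and 15). In a separate HCT116 system, Ku86Flox/- cells with or without the tamoxifen-inducible recombinase CreERT2 received ethanol (EtOH) or 50 nM 4-hydroxytamoxifen (4OHT) for 4 days, with 2 replicates a group. In HEK293, 3 Ku70-/- clones (Sa11, SB and TI) carried ectopic Ku70 induced by 1 µg/mL doxycycline, and were compared with the same clones 8 days after doxycycline was withdrawn. HCT116 RNA was poly-A enriched and HEK293 RNA was depleted of ribosomal RNA, so the cell lines were fitted separately. The flox replicates are not said to be separate cultures, so the p-values there rest on spread that may be only technical.

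Estimated counts per library came to 9.53 to 45.7 M in the 32 degron libraries, 13 to 17.6 M in the 8 flox libraries and 19.6 to 28.5 M in the 6 HEK293 libraries. The labels were checked first on the removed gene: XRCC5 went from 257 ± 1.41 to 27.8 ± 4.1 CPM (counts-per-million units, SD, n = 2) with Cre and 4OHT, and stayed at 244 ± 11.3 and 240 ± 5.66 CPM without Cre. XRCC6, whose ectopic copy doxycycline induces, went from 3010 ± 657 to 454 ± 136 CPM (SD, n = 3) on doxycycline withdrawal. The degron acts on protein, so XRCC5 RNA checks nothing in the IAA arms. Of 7 colon epithelial markers, KRT8, KRT18 and EPCAM led in HCT116, with list sums of 1490 to 4410 CPM. VIM, LIN28B and NEFL led 7 HEK293 markers in HEK293, with sums of 843 to 1180 CPM. Not all members followed their list. CDX1 was 0 in every library, LGALS4 stayed under 1 CPM, and VIL1 was 0.0319 ± 0.0552 CPM in 2-day DMSO. PAX2, a HEK293 marker, was higher in 2-day DMSO (5.16 ± 0.445 CPM) than in HEK293 on doxycycline (0.91 ± 0.213 CPM), where NEFM was 0.191 CPM. Some degron libraries stood apart on these markers. The 8 libraries of the 1-day groups and of the 2-day inhibitor groups had HEK293-marker sums of 48.4 to 64.3 CPM, with VIM at 35.9 to 48.7 and NEFL at 3.34 to 5.57 CPM, against sums of 4.26 to 25.9 CPM in the other 24 degron libraries, where VIM was 0.0455 to 11.7 CPM and NEFL was 0 in 23 of them. Each IAA comparison within those 8 libraries has them in both arms, whereas the inhibitor-alone comparison at 2 days has them in 1 arm only. A mixture of HEK293 RNA or reads in these 8 libraries is possible and was not tested, so levels printed for those groups may include it.

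The degron libraries also fell into 2 sets by the ratio of TERF2's TPM (transcripts-per-million units) to its CPM. That ratio was 0.767 to 1.57 in 18 libraries of 6 groups. These were DMSO and IAA at 2 days, IAA at 4 and 6 days, and inhibitor with or without IAA at 4 days. There the TEN1-CDK3 readthrough gene, which contains TEN1, had 0 to 80 counts. In the 14 libraries of the other 6 groups (1 day, inhibitor with or without IAA at 2 days, and MAVS-/-), that ratio was 0.511 to 0.664 and TEN1-CDK3 had 64 to 224 counts. TEN1-CDK3 overlapped between the sets, at 0 to 5.09 against 4.55 to 13 CPM, whereas the TERF2 ratio did not. The labels name no batch, and what separates these TERF2-ratio sets was not tested. In 2 comparisons the arms lie in different sets: inhibitor alone at 2 days, and MAVS-/- against MAVS-intact cells in DMSO.

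All 10 genes had enough counts to be tested in all 18 comparisons. Levels differed widely between them when scaled per transcript length. In the 2-day DMSO group, TERF2 was the most abundant at 143 ± 21.1 TPM (SD, n = 3). TERF1 followed at 54.6 ± 1.89 TPM, TERF2IP at 45.2 ± 10.2, STN1 at 42.3 ± 5.4, POT1 at 34.0 ± 7.56, ACD at 33.7 ± 1.8 and CTC1 at 32 ± 2.15 TPM, and neighbours in this run of 6 overlapped within their SDs. Below them came TINF2 at 18.8 ± 2.86 TPM, TEN1 at 8.35 ± 1.48 and TERT at 5.99 ± 5.25 TPM, the last 2 not separated by their spread. The 143 TPM of TERF2 comes from the set with the higher ratio of its TPM to its CPM. In 1-day DMSO TERF2 had 59.1 ± 4.38 TPM (SD, n = 2) at a mean of 107 CPM, against 130 CPM in 2-day DMSO. In the flox cells with Cre and ethanol, TERF2 was again highest (55.4 TPM) and TERT lowest (3.42 ± 0.969 TPM, SD, n = 2). HEK293 cells on doxycycline had a different order: TERF2IP led at 82.9 ± 8 TPM with POT1 at 71.6 ± 14.4, CTC1 was at 6.19 ± 0.878, and TERT was again the lowest at 0.707 ± 0.219 TPM (SD, n = 3). The 2 cell lines were quantified from different library types, so no test was made between them.

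**Figure D1:**
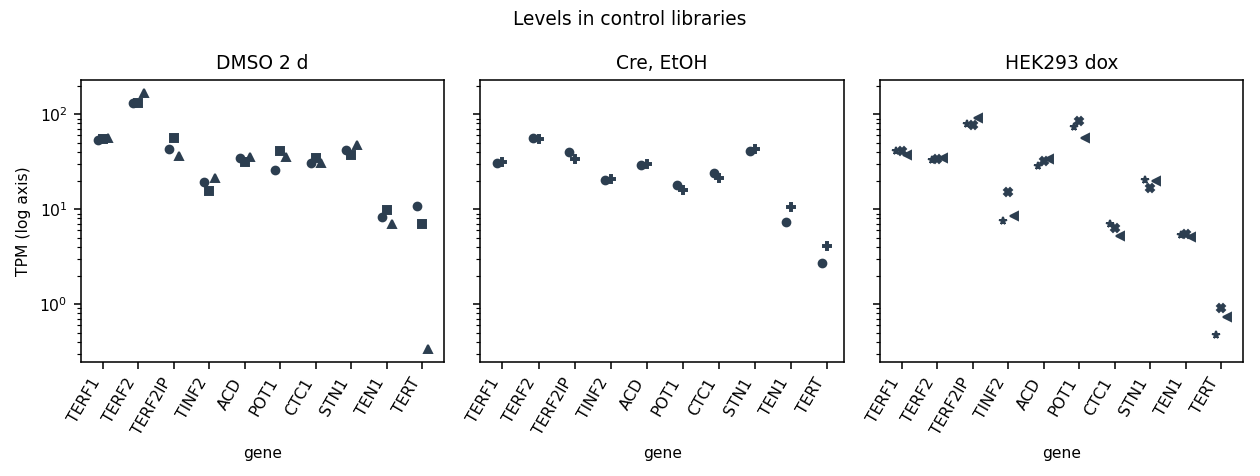
Levels of the 10 genes in 3 control groups, in TPM on a log axis, with 1 marker per library. TERF2 was highest in the HCT116 controls, TERF2IP and POT1 led in HEK293, and TERT had the lowest mean in each group, although in 2-day DMSO its libraries (0.333 to 10.7 TPM) overlapped those of TEN1 (6.97 to 9.91 TPM).

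Upstream sequence of RefSeq genes was available for 6 of the 10 genes. It is shown for POT1, TERF2IP and STN1 because these shelterin and CST genes passed the test after excision of Ku86 in every alternative, POT1 lower and TERF2IP and STN1 higher. TERF1 and ACD passed likewise and are not shown. No upstream sequence was available for TERF1, and the window of ACD was not checked against annotated untranslated regions. The stretches lie upstream of the RefSeq transcript start outside annotated untranslated regions, are written 5′ to 3′ on the strand of the gene in lower case, and carry the GC box GGGCGG, the core letters bound by SP1-family factors, in capitals. POT1 is on the minus strand of chr7:124822386-124929825 and its stretch is chr7:124929984-124930075. TERF2IP is on the plus strand of chr16:75647773-75657432 with the stretch chr16:75647680-75647772, and STN1 is on the minus strand of chr10:103877569-103918184 with the stretch chr10:103918206-103918434 (all RefSeq, GRCh38.p14).
POT1: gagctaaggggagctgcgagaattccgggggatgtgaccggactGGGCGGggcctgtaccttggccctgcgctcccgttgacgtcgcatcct
TERF2IP: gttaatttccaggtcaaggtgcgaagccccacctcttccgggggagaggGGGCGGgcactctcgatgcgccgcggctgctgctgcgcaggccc
STN1: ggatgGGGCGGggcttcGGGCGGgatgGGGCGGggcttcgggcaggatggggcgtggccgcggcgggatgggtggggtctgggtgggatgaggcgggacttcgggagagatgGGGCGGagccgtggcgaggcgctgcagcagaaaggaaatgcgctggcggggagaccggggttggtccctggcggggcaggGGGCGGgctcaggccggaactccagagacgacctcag

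In the full windows of 250 bases upstream, searched on both strands, GGGCGG occurred 5 times for STN1, 2 times each for POT1, ACD and TERT, and 1 time for TERF2IP, while the TINF2 windows from its 2 starts held 2 and 1. Of 35116 RefSeq windows of the same length, 42.6% held GGGCGG. The E-box CACGTG, the letters recognised by MYC, occurred 1 time in the TERT window and in no other, and 6.34% of all windows held it. The E2F-type letters TTTGGCGC (in 0.55% of all windows) and TTTCCCGC (1.39%) and the core of the interferon-stimulated response element (3.02%) were in none of the 7 windows. POT1, which was lower after Ku86 excision, and STN1 and TERF2IP, which were higher, thus all had a GC box, and these searched letters did not separate them.

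Calls among the 10 genes are given next against the share of all tested genes called in the same comparison, by edgeR's quasi-likelihood test at an adjusted p of 0.05. After 1 day of IAA 0 of the 10 genes passed, at a background of 0.185%, and 0 had an unadjusted p under 0.05. At 2 days 2 passed (19.1% of all genes), at 4 days 5 passed (32.8%) and at 6 days 4 passed (35.2%). Between time points, 0 passed from 2 to 4 days (8.17%; 1 gene, ACD, had an unadjusted p under 0.05) and 2 passed from 4 to 6 days (12.5%). With the CDK4/6 inhibitor in both arms, IAA gave 0 calls at 2 days (0.413%; 1 unadjusted, CTC1) and 0 at 4 days (11.2%; 2 unadjusted, TERF2 and CTC1). In MAVS-/- cells IAA gave 1 call (7.88%). Excision of Ku86 with 4OHT gave 7 calls (54%), and 4OHT without Cre gave 0 (13.7%; 3 unadjusted, TINF2, CTC1 and TEN1). The difference between those responses was called for 8 genes (41.2%). Withdrawal of Ku70 in HEK293 gave 0 calls (22%; 1 unadjusted, CTC1). DESeq2 also called 0 of the 10 in each of these comparisons without a call. Read against the background, the count was near it at 2 and 6 days of IAA and below it in HEK293. In the fits reported it was a larger share than the background at 4 days, after Ku86 excision and in the Cre difference. Over the alternatives the count was 6 to 8 after Ku86 excision and 5 to 9 in the Cre difference, so no excess is read from either. The count of 5 at 4 days was 2 with limma on log2(TPM + 1) or when fitted on the compared groups alone, 2 to 5 on leaving out 1 library and 1 without clone 7, so no excess over the background is read from it.

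The median log2 fold change over the 10 genes was 0.175 at 2 days of IAA, 0.136 at 4 days, 0.0342 at 6 days, -0.158 after Ku86 excision and 0.116 in HEK293. Over all tested genes it was 0, 0.0417, 0, -0.00423 and 0.00422 in the same order. The 10 genes therefore did not shift as one group: TERT was lower by several-fold while TERF2IP and CTC1 were modestly higher in the degron cells, and POT1 was lower while STN1 and TERF2IP were higher in the flox cells.

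**Figure D2:**
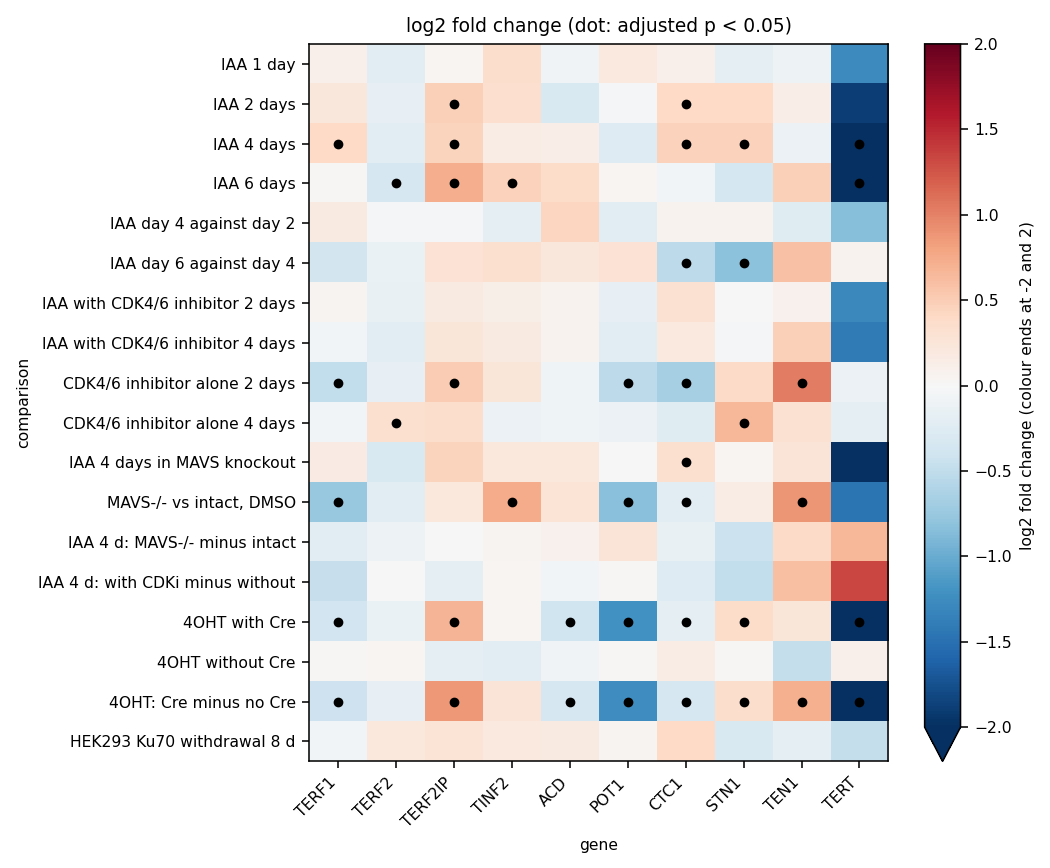
Log2 fold changes of the 10 genes (horizontal axis) in the 18 comparisons (vertical axis), in colour from -2 (blue) to 2 (red). A dot marks an adjusted p under 0.05. TERT is blue in each comparison that removed Ku, TERF2IP is red in most of them, and dots are most frequent in the Cre comparisons.

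TERT, the reverse transcriptase whose level limits telomerase activity in many cells, was the member with the largest change. In the 2-day DMSO group it had 11.2, 10.2 and 1.19 CPM in clones 1, 7 and 9, from 117, 141 and 12 counts. After 4 days of IAA it had 2.32, 0.663 and 0.237 CPM in the same clones, from 51, 11 and 3 counts, and after 6 days 1.79, 1.71 and 0.0631 CPM, from 81, 38 and 2 counts. Each clone was lower than its own DMSO library at 4 days, but clone 9 in DMSO lay inside the range of the IAA libraries, so the groups overlapped. The fall was 6.67-fold at 4 days (log2 -2.74 ± 0.79 SE, adjusted p = 0.00876) and 6.34-fold at 6 days (log2 -2.66 ± 0.77, adjusted p = 0.00835). In bulk RNA, fewer cells with the transcript and less transcript per cell cannot be told apart. Leaving clone 7 out of every group ended both calls (adjusted p = 0.136 and 0.0586), and limma on log2(TPM + 1) gave -1.34 at 4 days (adjusted p = 0.0833).

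At 2 days of IAA, TERT had 2.3, 2.58 and 1.19 CPM, lower than DMSO in clones 1 and 7 and equal in clone 9. The log2 change of -1.88 ± 0.76 did not pass (adjusted p = 0.0886), but it passed in 5 of 13 alternatives, among them with the clone as replicate block (log2 -1.65, adjusted p = 0.0292) and without the DMSO library of clone 9 (log2 -2.36, adjusted p = 0.0338). At 1 day, TERT was 12 and 5.41 CPM in DMSO and 5.1 and 2.12 CPM in IAA (clones 1 and 9). Both IAA libraries were below both DMSO libraries, and the change of -1.27 ± 0.90 was not called (adjusted p = 0.939).

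With the CDK4/6 inhibitor for 4 days, TERT had 7.45, 8.15 and 4.36 CPM, and with IAA added 3.06, 2.76 and 1.65 CPM. The 3 IAA libraries lay below all 3 without it, although the log2 change of -1.41 ± 0.75 did not pass (adjusted p = 0.271). The response with inhibitor minus that without was 1.33 ± 1.07 on the log2 scale, with a 95% interval of -0.862 to 3.52 (adjusted p = 0.563), so neither a difference nor its absence was shown. The inhibitor alone for 4 days gave a TERT change of -0.18 ± 0.72 (95% interval -1.66 to 1.29, not called).

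In MAVS-/- cells TERT had 2.6, 2.5 and 3.15 CPM in DMSO in clones 1, 13 and 15, within the range of the MAVS-intact DMSO libraries. After 4 days of IAA the same clones had 0.698, 0.958 and 0.303 CPM, each below every DMSO library. The log2 change of -2.07 ± 0.84 was not called (adjusted p = 0.145), but was called with the clone as replicate block (log2 -2.12, adjusted p = 0.0217) and by DESeq2 (adjusted p = 0.0473). Its difference from the response of MAVS-intact cells was 0.66 ± 1.15 on the log2 scale, with a 95% interval of -1.70 to 3.03.

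After Ku86 excision TERT went from 10.2 and 8.6 CPM in ethanol (179 and 142 counts) to 1.14 and 2.39 CPM in 4OHT (16 and 31 counts), with no overlap. This was a 5.37-fold fall (log2 -2.42 ± 0.24, adjusted p = 2.03e-06). Cells without Cre had 11.1 and 13.6 CPM in ethanol and 12.5 and 14 CPM in 4OHT, a change of 0.10 ± 0.16 that was not called. The response with Cre minus that without was -2.53 ± 0.30 (adjusted p = 1.84e-05). In HEK293, TERT was 1.95, 1.07 and 1.05 CPM in clones Sa11, SB and TI on doxycycline and 1.03, 0.949 and 0.912 CPM after withdrawal. Each clone was lower after withdrawal, but the change of -0.48 ± 0.39 was not called (adjusted p = 0.419, 95% interval -1.36 to 0.393). TERT was thus below its control in 7 of the 7 comparisons of Ku loss with a control group of their own, in which clones 1 and 9 recur, and 1 of the 7 was called.

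**Figure D3:**
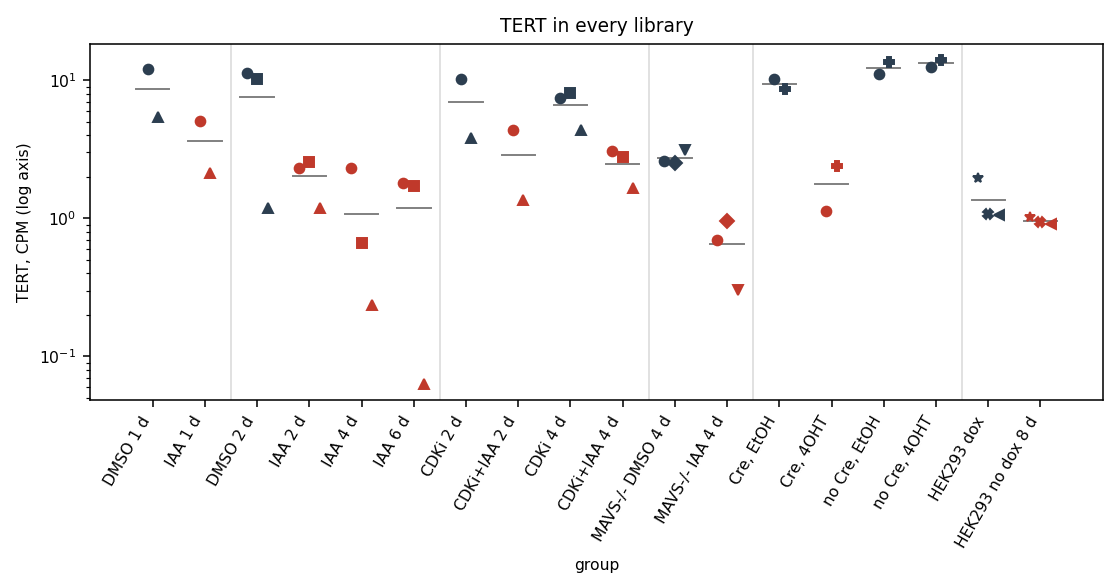
TERT in each library of the 18 groups, in CPM on a log axis; markers are clones or replicates, red marks groups with Ku removed, and grey bars are group means. Group means in the degron cells ran from 0.653 CPM (MAVS-/- with IAA) to 8.7 CPM (1-day DMSO), and each Ku-depleted mean was below its own control.

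Across all 12 degron groups the highest TERT group mean was 13.3 times the lowest, against 1.66 to 4 times for the other 9 genes. Means above 6 CPM occurred in the 1-day and 2-day DMSO groups and with inhibitor alone (8.7 ± 4.66, 7.53 ± 5.51, 7 ± 4.53 and 6.65 ± 2.02 CPM), 4 groups not separated by their spread. Groups given IAA had 1.07 to 3.61 CPM in MAVS-intact cells. MAVS-/- DMSO cells, at 2.75 ± 0.35 CPM, lay within that range. TERC, the telomerase RNA, has no poly-A tail in its mature form and could not be tested: it had 0 to 16 counts in the 40 HCT116 libraries and 0 in 27 of them.

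TERF1, which binds telomeric repeats as a dimer and limits telomere lengthening, had 84.5, 82.6 and 88.1 CPM in 2-day DMSO. After 4 days of IAA it had 86.4, 128 and 123 CPM, so clones 7 and 9 were higher and clone 1 was almost level with its control. The rise of 0.40 ± 0.13 (adjusted p = 0.0172) did not pass once clone 7's IAA library was dropped (log2 0.30, adjusted p = 0.107) and was lost in 5 of 13 alternatives in all. At 6 days TERF1 had 106, 83.4 and 70.4 CPM, overlapping DMSO, and the change was not called. In the flox cells it went the other way: 40.1 and 43 CPM in ethanol against 32.1 and 31.4 CPM in 4OHT with Cre, a fall of -0.39 ± 0.07 on the log2 scale (adjusted p = 0.000411) with no overlap. Without Cre, TERF1 was 40.5 and 38.8 CPM in ethanol and 40.3 and 40.6 CPM in 4OHT, and the difference between responses was -0.42 (adjusted p = 0.00407).

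TERF2, which protects ends from fusion by keeping them in a looped form, had 132, 122 and 137 CPM in 2-day DMSO and 90.4, 102 and 116 CPM after 6 days of IAA. All 3 IAA libraries were below all 3 DMSO libraries, and the fall was -0.34 ± 0.10 (adjusted p = 0.00769), lost in 4 of 13 alternatives with an adjusted p of up to 0.434, among them the one without the DMSO library of clone 9. In MAVS-/- cells it had 120, 108 and 110 CPM in DMSO and 98.6, 83.1 and 92 CPM in IAA, also without overlap. That difference of -0.31 missed the threshold (adjusted p = 0.0543) and passed with the clone as replicate block (adjusted p = 0.0367), with RLE scaling, by DESeq2 and without the IAA library of clone 1. After Ku86 excision the TERF2 difference of -0.13 was not called (adjusted p = 0.104).

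TERF2IP (RAP1), the shelterin subunit carried by TERF2, was above its control in 7 of the 7 comparisons of Ku loss that have a control group of their own, with log2 changes of 0.04 to 0.69. Clones 1 and 9 recur among these comparisons, and 2 of the 7 were called. TINF2 was also above its control in 7 of the 7, with log2 changes of 0.03 to 0.36 and 0 called. In 2-day DMSO TERF2IP had 48.1, 63 and 40.8 CPM, and after 2 days of IAA 73.8, 73.6 and 63.2 CPM. Each IAA library was above every DMSO library. The rise was 0.47 ± 0.16 (adjusted p = 0.0376), 0.44 ± 0.16 at 4 days (adjusted p = 0.0323) and 0.73 ± 0.16 at 6 days (adjusted p = 0.000635), when the libraries had 100, 70.3 and 82.1 CPM. Dropping either library of clone 1, clone 7 in IAA or clone 9 in DMSO ended the 2-day call (adjusted p up to 0.21). The 4-day call was lost in 6 of 13 alternatives (up to 0.318), with clone 7 in IAA and clones 1 and 9 in DMSO each enough when dropped, whereas the 6-day call held in every alternative. With Cre and 4OHT, TERF2IP went from 59.8 and 49.2 to 88.8 and 86.8 CPM (log2 0.69 ± 0.08, adjusted p = 1.21e-05), against 53.5 and 58.7 to 48.2 and 50.3 CPM without Cre. The responses differed by 0.87 (adjusted p = 7.14e-05). In MAVS-/- cells it had 60.1, 56 and 59.4 CPM in DMSO and 75, 85.5 and 77.8 CPM in IAA, a change of 0.44 that did not pass (adjusted p = 0.0886) although the groups did not overlap.

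TINF2 (TIN2) and ACD (TPP1) form the bridge between the double-stranded and single-stranded DNA binders, and ACD also recruits telomerase. TINF2 had 18.6, 19.1 and 20.2 CPM in 2-day DMSO and 24.7, 31.9 and 23.5 CPM after 6 days of IAA, a rise of 0.46 ± 0.15 (adjusted p = 0.0168) that turned to -0.0155 with limma on log2(TPM + 1) and was lost in 5 other alternatives of 13, among them those that dropped clone 1 or 7 in DMSO or clone 7 in IAA. ACD was called in none of the degron comparisons. With Cre it went from 35 and 34 CPM in ethanol to 27.7 and 24.6 CPM in 4OHT (log2 -0.40 ± 0.08, adjusted p = 0.00109), and without Cre from 35.5 and 39.1 to 34.9 and 36.3 CPM. Their difference of -0.33 passed (adjusted p = 0.0311) but was lost in 7 of 13 alternatives (up to 0.176), 6 of them leaving out 1 library.

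POT1, which binds the single-stranded overhang and holds back the ATR kinase there, fell more than any other shelterin gene after Ku86 excision. It had 22.8 and 20.3 CPM in ethanol and 9.58 and 8.96 CPM in 4OHT with Cre, a 2.33-fold fall (log2 -1.22 ± 0.12, adjusted p = 1.39e-06). Without Cre the values were 28.7 and 23.7 CPM in ethanol and 26.2 and 27.1 CPM in 4OHT, with full overlap. The difference of -1.24 (adjusted p = 2.64e-05) held in every alternative. POT1 was called in none of the degron IAA comparisons. The 3 libraries of 2-day DMSO had 30.8, 34.3 and 36.5 CPM. Against them its log2 change was -0.03 at 2 days of IAA (95% interval -0.394 to 0.325). It was -0.25 at 4 days (-0.614 to 0.106) and 0.04 at 6 days (-0.316 to 0.396), so a fall at 4 days was neither shown nor excluded. In HEK293 it was 83.1, 93.4 and 72 CPM on doxycycline and 84.3, 81 and 92.9 CPM after withdrawal (log2 0.06, 95% interval -0.232 to 0.342). The antisense gene POT1-AS1 starts next to POT1 on the other strand and had 0 to 37 counts, and processed TERF1 copies such as TERF1P7 had 14 counts at most.

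**Figure D4:**
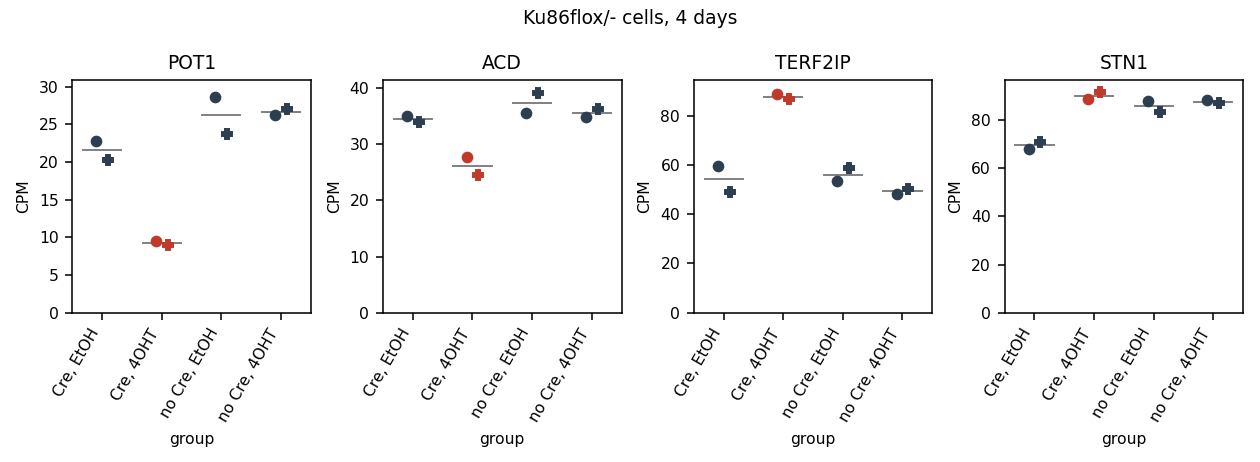
POT1, ACD, TERF2IP and STN1 in the 4 flox groups, in CPM from 0, with 1 marker per library and grey bars for means. With Cre, POT1 and ACD were lower and TERF2IP and STN1 higher in 4OHT than in ethanol, and the 2 libraries of each such group did not overlap.

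CTC1, the large scaffold of CST, rose at 2 and 4 days of IAA in the degron cells. It had 92.7, 94.2 and 80.5 CPM in 2-day DMSO, 115, 116 and 121 CPM after 2 days of IAA, and 129, 126 and 115 CPM after 4 days. No IAA library of these days overlapped DMSO. The rise was 0.40 ± 0.09 at 2 days (adjusted p = 0.00206) and 0.47 ± 0.09 at 4 days (adjusted p = 0.000178), and both held in every alternative. At 6 days CTC1 was back at 79.4, 90.1 and 88.7 CPM (log2 -0.05, not called). From 4 to 6 days it fell by 0.52 ± 0.09 (adjusted p = 0.0007).

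STN1, the CST subunit that contacts polymerase alpha-primase, followed a like course with wider spread. It had 71.1, 58.3 and 68.3 CPM in 2-day DMSO, 99.8, 79.5 and 80.4 CPM at 2 days of IAA, and 70.6, 87.9 and 115 CPM at 4 days. The 2-day change of 0.39 was not called (adjusted p = 0.118) although the groups did not overlap, and the 4-day rise of 0.47 ± 0.17 (adjusted p = 0.0391) ended on dropping clone 7 in IAA (adjusted p = 0.0568), clone 9 in IAA or clone 7 in DMSO, and in 6 of 13 alternatives in all (up to 0.342). At 6 days STN1 had 47.8, 54.3 and 52.8 CPM, all below DMSO but not called (log2 -0.35, adjusted p = 0.118). From 4 to 6 days STN1 fell by 0.82 ± 0.17 (adjusted p = 0.00357), and TERF1, with a change of -0.37, did not pass (adjusted p = 0.0535). When fitted on the compared groups alone, neither CTC1 nor STN1 passed from 4 to 6 days.

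**Figure D5:**
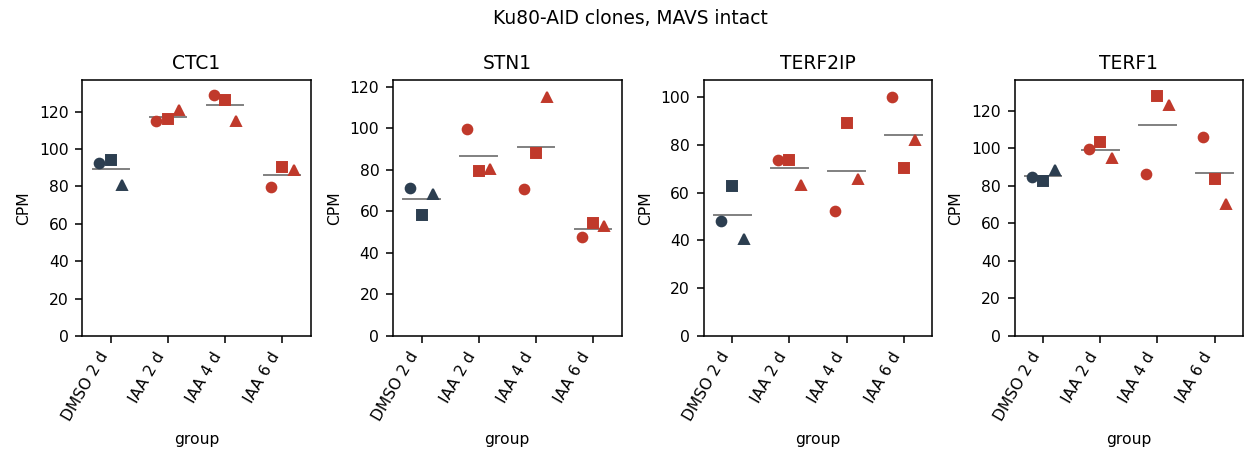
CTC1, STN1, TERF2IP and TERF1 in 2-day DMSO and after 2, 4 and 6 days of IAA in Ku80-AID cells, in CPM from 0, with 1 marker per clone and grey bars for means. CTC1 was above all DMSO libraries at 2 and 4 days and back among them at 6 days, while TERF2IP was at its highest mean at 6 days.

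The response of CST genes was not the same in the other systems. In MAVS-/- cells CTC1 went from 73.5, 78.6 and 77.8 to 90.4, 106 and 89.7 CPM (log2 0.31 ± 0.09, adjusted p = 0.028), a call lost in 8 of 13 alternatives (adjusted p up to 0.278), including on dropping any 1 DMSO library or clone 13 in IAA. With Cre and 4OHT it went the other way, from 83.5 and 74.8 to 69.3 and 69.6 CPM (log2 -0.19 ± 0.06, adjusted p = 0.0234, lost in 4 of 10 alternatives with an adjusted p of up to 0.239), while without Cre it was 79.5 and 78.2 CPM in ethanol and 85.6 and 88.4 CPM in 4OHT. The responses differed by -0.33 (adjusted p = 0.00981), a call lost in 2 of 13 alternatives: with limma on log2(TPM + 1) (adjusted p = 0.0548) and without ethanol replicate 1 with Cre (adjusted p = 0.0582). In HEK293 CTC1 was 28.3, 25.3 and 24.7 CPM on doxycycline and 40.7, 34.6 and 27.4 CPM after withdrawal. Each clone was higher after withdrawal, and the difference of 0.39 ± 0.16 missed the threshold (adjusted p = 0.113) but passed with the clone as replicate block (adjusted p = 0.0461) and without the withdrawal library of TI.

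STN1 rose after Ku86 excision from 68.1 and 71.1 to 88.6 and 91.7 CPM (log2 0.37 ± 0.06, adjusted p = 0.000109). Cells without Cre already had 88.1 and 83.5 CPM in ethanol, and had 88.2 and 87.2 CPM in 4OHT. The responses differed by 0.34 (adjusted p = 0.0041), and the 4OHT libraries with Cre lay beside those without Cre. Between degron groups STN1 had the widest range after TERT, from 26 CPM with IAA at 1 day to 104 CPM with inhibitor at 4 days. Those 2 groups lie in different TERF2-ratio sets. The 1-day DMSO libraries had 32.1 and 27.8 CPM. Inhibitor alone at 2 days, in the set of the 1-day groups, had 85.9 ± 9.62 CPM (SD, n = 2). In MAVS-/- cells with IAA clone 13 stood below its DMSO library (47.1 against 76.7 CPM) and clones 1 and 15 above theirs. TEN1, the smallest CST subunit, had few counts and shares its exons with TEN1-CDK3, so reads cannot be fully assigned to one of them. It was 5.56 and 6.96 CPM in ethanol and 7.52 and 7.26 CPM in 4OHT with Cre, and 6.53 and 7.78 against 4.88 and 5.36 CPM without Cre. Neither change passed, and their difference of 0.72 did (adjusted p = 0.0226), though in 6 of 13 alternatives it was lost (up to 0.332), 4 of them leaving out 1 library.

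The inhibitor-alone groups at 2 and 4 days were both compared with 2-day DMSO, so the 4-day one has no control of its own time. With the CDK4/6 inhibitor alone for 4 days 2 of the 10 genes were called (7.69% of all genes), TERF2 (log2 0.32, adjusted p = 0.0414) and STN1 (log2 0.67, adjusted p = 0.0161), both higher. STN1 was 101, 108 and 104 CPM with inhibitor, above all 3 DMSO libraries, and 102, 102 and 106 CPM with inhibitor and IAA. Both calls were lost without clone 7 (adjusted p up to 0.782 for TERF2 and 0.461 for STN1 over the alternatives). At 2 days of inhibitor alone 5 of the 10 genes were called (34.4% of all genes): TERF2IP (log2 0.51) and TEN1 (1.02) were higher, and TERF1 (-0.50), POT1 (-0.52) and CTC1 (-0.66) lower. In the same comparison 4 of the 7 HEK293 markers were called higher, LIN28B by 4.68, SOX2 by 4.63 and VIM by 3.82 on the log2 scale and NEFL from 0 to 4.16 CPM. The arms also lie in different TERF2-ratio sets. The part of either in these 5 calls was not tested. The 1-day DMSO group is in the same set as the inhibitor arm and has the same raised markers. Its means for TERF1, POT1, TERF2IP, TEN1 and CTC1 were 64.7, 24.4, 69.7, 8.66 and 66.4 CPM. With inhibitor at 2 days they were 60.3, 23.6, 72.4, 9.62 and 56.4 CPM in the same order. That comparison was not tested. TERF1 and CTC1 held in all 12 alternatives, but each kept 2-day DMSO, from the other set, as the control. POT1 lost its call with the clone as replicate block (log2 -0.49, adjusted p = 0.0588), and TERF2IP turned to -0.239 with limma on log2(TPM + 1), where TEN1 was at 0.435 (adjusted p = 0.329). TERF2IP and TEN1 were each lost on dropping either inhibitor library or clone 1 or 9 in DMSO, and POT1 on dropping either inhibitor library or clone 7 or 9 in DMSO (adjusted p up to 0.303 for TERF2IP and 0.139 for TEN1 and for POT1).

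MAVS-/- cells in DMSO for 4 days were compared with MAVS-intact cells in DMSO for 2 days. The 2 groups differ in clone, time and TERF2-ratio set as well as in MAVS. MAVS RNA was 139 ± 27.4 CPM against 324 ± 14.7 CPM (SD, n = 3). Of the 10 genes 5 were called (46.1% of all genes): TINF2 (log2 0.74, adjusted p = 0.00027) and TEN1 (0.88) were higher, and TERF1 (-0.76), POT1 (-0.84, adjusted p = 0.000387) and CTC1 (-0.22, adjusted p = 0.0483) were lower. TERF1 and POT1 held in every alternative. CTC1 lost its call in 10 of 13 (adjusted p up to 0.293), DESeq2 and RLE scaling and 5 single libraries among them, TINF2 fell to 0.05 with limma on log2(TPM + 1) (adjusted p = 0.883), and TEN1 was lost in 5 of 13 (up to 0.176), 4 of them leaving out 1 library. TERF1 was 49.6, 55.5 and 45.2 CPM in the MAVS-/- clones and POT1 19.5, 18.9 and 18.2 CPM, both below every MAVS-intact DMSO library. These factors cannot be told apart. The IAA response of MAVS-/- minus MAVS-intact cells was called for 0 of the 10 genes (4.85% of all genes), with 0 at an unadjusted p under 0.05 and 0 by DESeq2. The response with inhibitor minus that without at 4 days was called for 0 (4.69%), with 2 unadjusted: TERF1 (-0.46, adjusted p = 0.155) and CTC1 (-0.27, adjusted p = 0.256).

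Over the 12 degron group means, the genes of the table most like TERT by Pearson's r were SLC7A2 (0.976) and EIF2S3 (0.97), and those most like POT1 were IPMK (0.973) and CTDSPL2 (0.971). FEM1C (0.989) and MAP3K7 (0.985) were most like TERF1, CYTH3 (0.958) was most like CTC1, and FAM227A and PROM2 (both 0.963) were most like STN1. Among the 10 genes themselves, TERF1 and POT1 ran together (0.832), TERF1 and TEN1 ran opposite (-0.897), and CTC1 and STN1 had an r of 0.311. These are descriptions over 12 means out of 18877 genes, whose points share clones and the TERF2-ratio sets above.

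Of all tested genes, 14.9% were called lower and 17.9% higher at 4 days of IAA, 27.5% lower and 26.4% higher with Cre, and 10.9% lower and 11.1% higher in HEK293, and the counts that follow for genes that work with these complexes are set against those shares. Polymerase alpha-primase starts DNA strands at replication forks everywhere and is recruited to telomeres by CST. All 4 of its genes were lower at 2, 4 and 6 days of IAA and after Ku86 excision. Median log2 changes were -1.11, -1.52, -1.85 and -1.67. At 2 and 6 days of IAA 9.94% and 17.5% of all genes were called lower. The primase subunit PRIM1 fell by 2.38 ± 0.20 at 4 days of IAA and by 2.44 ± 0.13 with Cre on the log2 scale, and POLA2 by 1.55 and 1.56. With inhibitor and IAA at 4 days 3 of the 4 were lower (5.1% of all genes), and in MAVS-/- cells 1 (PRIM1, 3.15% of all genes). In HEK293 0 of the 4 passed, with a median of 0.224. Inhibitor alone for 4 days, against 2-day DMSO, also had 2 of the 4 lower (3.84% of all genes), with a median of -0.646. The part of cell-cycle arrest in the falls with Ku loss was not tested.

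Of 12 telomere nucleases and helicases, 7 were lower and 1 (MUS81) higher at 4 days of IAA, and 10 were lower with Cre, larger shares than the 14.9% and 27.5% of all genes called lower. FEN1, the flap nuclease of lagging-strand synthesis, was at -1.70 and -1.80 on the log2 scale, and EXO1, the 5′ resection nuclease, at -1.46 and -2.63. RTEL1, the helicase that opens telomeric loops, was at -0.57 and -1.03. Inhibitor alone for 4 days also had 5 of the 12 lower, with a median of -0.571, against 3.84% of all genes called lower. In HEK293 3 of the 12 were higher and 1 lower, and EXO1 was higher by 0.96 (adjusted p = 0.00702).

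Of the 15 tested genes of the telomerase RNA, its biogenesis and trafficking, 7 were lower and 1 higher at 4 days of IAA (14.9% and 17.9% of all genes). Among them were NHP2 (-1.05), RUVBL1 (-0.97), RUVBL2 (-0.92), WRAP53 (-0.72) and DKC1 (-0.57), which assemble the telomerase particle or carry it to Cajal bodies. With Cre 4 were lower and 3 higher, near the 27.5% lower and 26.4% higher of all genes, DKC1 was again lower (-0.41), and NHP2 (0.05), RUVBL1 (0.01) and RUVBL2 (-0.06) were not called. In HEK293 4 were higher and 0 lower, with GAR1 at 0.95, DKC1 at 0.91, WRAP53 at 0.84 and NVL at 0.64. TEP1, a telomerase-associated protein, was higher both at 4 days of IAA (0.60) and with Cre (0.73).

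Of 8 tankyrase and TRF1-turnover genes, RLIM (-0.65) and GNL3 (-0.81) were lower at 4 days of IAA and 0 were higher, a smaller share than the 32.8% of all genes called. With Cre 3 of the 8 were lower and 3 higher against 54% of all genes called, among the latter TNKS2 (0.47). Of 12 telomeric chromatin genes, 4 were lower and 2 higher at 4 days, and 7 lower and 2 higher with Cre. ORC1 (-1.88 and -2.18), SUV39H1 (-1.50 and -1.76) and CBX5 (-0.90 and -1.08) were lower in both. Of 10 genes that signal from damaged ends, 5 were lower at 4 days and 6 with Cre, against 14.9% and 27.5% of all genes, CHEK1 by 1.66 and 1.56 and RIF1 by 0.62 and 0.78 on the log2 scale, and 0 passed in HEK293. The other subunit of Ku moved as well: XRCC6 was lower by 1.35 at 4 days of IAA and by 0.60 with Cre, and PRKDC, the kinase that Ku recruits, was lower by 0.82 and 0.75.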

How the data were processed

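RNA-seq of 46 libraries was used. The deposited HCT116 and HEK293 tables hold estimated counts and TPM per gene, made by the authors. The submitters' processing notes name Salmon 1.10.2, kallisto 0.50.0, DESeq2 and GRCh38. Their roles and the annotation used were not given in the sources used here. All columns matched 1 library by name (0 left unmatched). RNA had an integrity number above 9, per the labels.

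Estimated counts were rounded, scaled by TMM and tested with edgeR 4.0.16 (quasi-likelihood, R 4.3.3, Benjamini-Hochberg over all tested genes, threshold 0.05) in 3 fits: 12 degron groups (32 libraries, 18877 genes tested), 4 flox groups (8 libraries, 16726 genes) and HEK293 (6 libraries, 15549 genes), after edgeR's default filter on low counts. Residual degrees of freedom were 20, 4 and 4. Levels are CPM on TMM-scaled totals, or the deposited TPM where genes are compared with each other. SEs are the log2 change divided by the root of the F statistic, and intervals are 95%. The script was checked on simulated data. No 2 libraries of a group were identical.

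The same clone in both arms pairs libraries, as the labels name it. Same-clone deviations correlated by -0.113 to 0.467 over the comparisons, and a fit with the clone as replicate block called 1 more member in HEK293 (1 against 0) and 3 against 1 in MAVS-/- cells. Alternatives were DESeq2 1.42.0, RLE scaling, limma 3.58.1 on log2(TPM + 1), no count filter, fits of the compared groups alone, and each library left out. Leaving out clone 7 or clone 13 was chosen after seeing the data. The 10 members and the gene lists were chosen with earlier results of these data known. Other genes were named as the 3 with the largest change per list at 4 days of IAA, and the 2 most alike by r; other named genes were chosen after their values were seen. Upstream sequences are RefSeq GRCh38.p14.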

Additional observations from a re-analysis of the deposited data

Results flagged for a closer look

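For 8 of the 10 genes the response to 4OHT differed between flox cells with and without Cre by the interaction test of edgeR. The log2 difference (with Cre minus without) was -2.53 for TERT, -1.24 for POT1, -0.416 for TERF1, -0.334 for ACD and -0.331 for CTC1. It was 0.872 for TERF2IP, 0.718 for TEN1 and 0.344 for STN1. Each group had 2 libraries, and 41.2% of all tested genes differed by the same test.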

How the results depend on the processing

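Calls of CTC1 at 2 and 4 days of IAA, of TERF2IP at 6 days, and of TERF1, TERF2IP, ACD, POT1, STN1 and TERT with Cre held in every alternative run. Counts of the 10 genes called moved elsewhere. For IAA at 2 days 2 became 4 with no count filter, 4 with limma and 5 on the compared groups only, and 1 to 3 leaving out 1 library. At 4 days 5 became 2 with limma, 2 on the compared groups and 1 without clone 7 (leave-one-out 2 to 5). At 6 days 4 became 2 with limma and 1 without clone 7 (3 to 4). From 2 to 4 days 0 became 1 with limma (0 to 1), and from 4 to 6 days 2 became 1 with limma and 0 on the compared groups (2 to 3). For IAA with inhibitor at 4 days 0 became 1 with no filter, with limma and on the compared groups. For inhibitor alone at 2 days 5 became 2 to 4 leaving out 1 library, and at 4 days 2 became 1 with no filter, 1 with limma and 0 without clone 7 (0 to 2). For IAA in MAVS-/- cells 1 became 2 with RLE, 3 with DESeq2, 0 with limma and 0 without clone 13 (0 to 2). MAVS-/- against intact cells gave 3 to 5, the inhibitor difference 0 to 1, 4OHT without Cre 0 to 2 and the Cre difference 5 to 8 leaving out 1 library. The clone as replicate block gave 3 in MAVS-/- cells and 1 in HEK293 (leave-one-out 0 to 1), and beside the calls given in the report it changed no other. With the flox replicate number as replicate block, which only shares a number (correlations 0.012 and 0.0632), 7, 0 and 8 members and 8960, 2238 and 6811 genes were called. No paired fit was possible for MAVS-/- against intact cells because their clones differ. With limma TINF2 turned to -0.0155 at 6 days of IAA and to -0.636 with inhibitor at 2 days, and TERF2IP to -0.239 there. The cause was not tested.

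Over all genes, calls moved by over 1.5 times for IAA at 1 day (35, range 3 to 1607), 2 days (3597, 2274 to 5340), 4 days (6198, 3892 to 6437), 2 to 4 days (1542, 264 to 2561) and 4 to 6 days (2355, 54 to 3470). They did so with inhibitor and IAA at 2 days (78, 4 to 575) and 4 days (2119, 993 to 2664), inhibitor alone at 2 days (6494, 4121 to 8719) and 4 days (1451, 612 to 2007), IAA in MAVS-/- cells (1488, 756 to 2103), its difference from intact cells (915, 341 to 1419), the inhibitor difference (886, 260 to 1472), 4OHT without Cre (2292, 574 to 2756) and HEK293 (3426, 1164 to 5404). TERT rested on 2 to 219 counts a library, which limits its precision.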
